A study of Mus musculus with 172 samples.

Results

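Among the 33 BXD/RwwJ lines of this mouse series, 6 form 3 pairs of sublines that share a line number: BXD48 with BXD48a (also numbered 96), BXD65 with BXD65a (97) and BXD73 with BXD73b (103). The pairs are defined by the names of the lines, and they account for 24 of the 172 libraries. Each line had 1 library in cortex and 1 in liver for each sleep state. Cortex and liver came from young adult male mice. These were either left undisturbed (Ctr) or kept awake for 6 h from light onset by gentle handling (SD), and both groups were killed at the same hour. The comparison set was the 27 other BXD/RwwJ lines, which form 351 pairs. The parental strains C57BL/6J (B6) and DBA/2J (D2), each in 2 pools per tissue and state, and their F1 offspring of both crosses, BDF1 and DBF1, served as references, and the BXD/TyJ lines 5, 29, 29t and 32 completed the series. The labels name no engineered allele.

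A recombinant inbred line is a mosaic of its founders' genomes that has been made homozygous by brother-sister mating. Lines that share a number trace to the same breeding stock and share long stretches of genome, so a sibling pair still differs only where each line fixed another founder's allele or a later mutation. A variant in or near a gene can set its RNA level, and at such a gene each inbred line tends to show the level of the parent whose allele it carries.

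Each library was made from RNA of 1 line, state and tissue, pooled over several mice for most lines, so no line had a replicate within a state. Per the study, BXD79, BXD85 and BXD101, which belong to the comparison set, were exceptions with fewer mice. The part of these lines in the values of other pairs was not tested. The Ctr pool and the SD pool of a line held different mice, and a difference between siblings was therefore measured in 2 sets of mice per tissue. Ctr and SD mice were paired within collection cohorts and the lines were spread over cohorts, but the labels do not give the cohorts of a pool, and their part in the results was not tested. Subline libraries held 20617600 to 25068751 reads on listed genes in cortex and 5868228 to 8269401 in liver, within the range of all libraries (18995492 to 28998853 and 4681101 to 9022854). The 8 cortical neuron markers summed to 12428.7 to 13820.8 CPM in the sublines and 12435.9 to 14000.1 in the other lines in Ctr, and to 12476.4 to 13849.7 and 12015.8 to 14019.0 in SD. Choroid plexus markers, of which 9 of 13 were listed, summed to 525.5 CPM in the Ctr cortex of BXD73 and 308.2 CPM in that of BXD73b, against 235.0 to 468.4 in the other lines. In SD these sums were 288.1 and 313.3 CPM, against 230.1 to 864.1 in the other lines. In BXD48 and BXD48a they were 424.3 and 443.0 CPM in Ctr and 255.5 and 446.4 in SD. Hepatocyte markers summed to 1925.7 CPM in the Ctr liver of BXD73b, against 1970.5 to 2981.7 in the other lines. Their part in the results below was not tested.

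Levels are given as log2 of the reads of a gene scaled to the size of its library (log2 CPM), and a difference is always the a or b subline minus the numbered line on that log2 scale. A gene was called different within a pair when limma's moderated test over both states gave a Benjamini-Hochberg adjusted p under 0.05 and the difference had 1 sign and a size of at least 0.5 log2 in the Ctr pools and in the SD pools. The standard error (SE) of such a difference came from how the 43 pools of a tissue varied between states around a common SD effect.

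Sibling lines lay close together in overall expression. In cortex the mean absolute difference over 14896 genes was 0.127 for BXD48 and BXD48a, 0.130 for BXD65 and BXD65a and 0.137 for BXD73 and BXD73b. These were the closest, the second closest and the fourth closest of all pairs of BXD/RwwJ lines. The median of the 351 pairs of other lines was 0.194, with a range of 0.131 to 0.260. The 3 pairs were tested against all 16613520 sets of 3 disjoint pairs of the 33 lines, and this two-sided exact permutation test gave p = 2.41e-07, or 4.82e-07 adjusted over the 6 tests of this kind.

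In liver, with 14107 genes, the siblings were less uniformly close. BXD73 and BXD73b were the closest of all pairs at 0.230, and BXD65 and BXD65a ranked 3 at 0.248. BXD48 and BXD48a ranked only 49, at 0.294, although still under the median of 0.329 for pairs of other lines. The mean of the 3 pairs was 0.257, and the exact permutation test gave p = 1.32e-05 (adjusted 1.99e-05). Pools of identical genotype served as the reference for these numbers. The B6 pools differed by 0.133 in cortex and 0.192 in liver, and the D2 pools by 0.119 and 0.219. In cortex the values of the 3 sibling pairs lay within or just above those of the repeated parental pools. Per the study, the parental strains were sampled at the start and again at the end of its collection, and the part of time was not tested. In cortex the reciprocal F1 pools differed by 0.123 and the TyJ lines BXD29 and BXD29t by 0.112, both below the 3 sibling pairs. In liver they differed by 0.244 and 0.269.

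The genes called within a sibling pair were few. Within BXD48 and BXD48a 53 genes were called in cortex (0.356% of the genes tested) and 112 in liver (0.794%). Within BXD65 and BXD65a the numbers were 62 (0.416%) and 60 (0.425%), and within BXD73 and BXD73b 48 (0.322%) and 44 (0.312%). The higher level was in the a or b subline for 30 (0.201%), 35 (0.235%) and 25 (0.168%) of the genes of the pairs 48, 65 and 73 in cortex and for 93 (0.659%), 36 (0.255%) and 30 (0.213%) in liver. The median pair of other lines had 413 in cortex (2.77%) and 499 in liver (3.54%), and D2 against B6 gave 934 (6.27%) and 1182 (8.38%). In cortex the 3 sibling pairs had the lowest counts of all pairs, and the exact permutation test gave the smallest p it allows, 1.2e-07 (adjusted 4.82e-07). In liver they ranked 4, 2 and 1 (exact permutation p = 2.41e-07, adjusted 4.82e-07). Between pools of 1 genotype 2 cortex and 0 liver genes were called between the B6 pools and 0 and 1 between the D2 pools. The TyJ lines BXD29 and BXD29t, which share a number as well, had 2 genes called in cortex but 57 in liver, beside a liver distance of 0.269. At an unadjusted p under 0.05 from limma, without the size rule, the sibling pairs had 942 to 1166 of 14896 genes in cortex. In liver they had 806 to 2399 of 14107. Without any difference a share of 0.05 of the genes would pass, so these are not counts of differing genes.

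**Figure D1:**
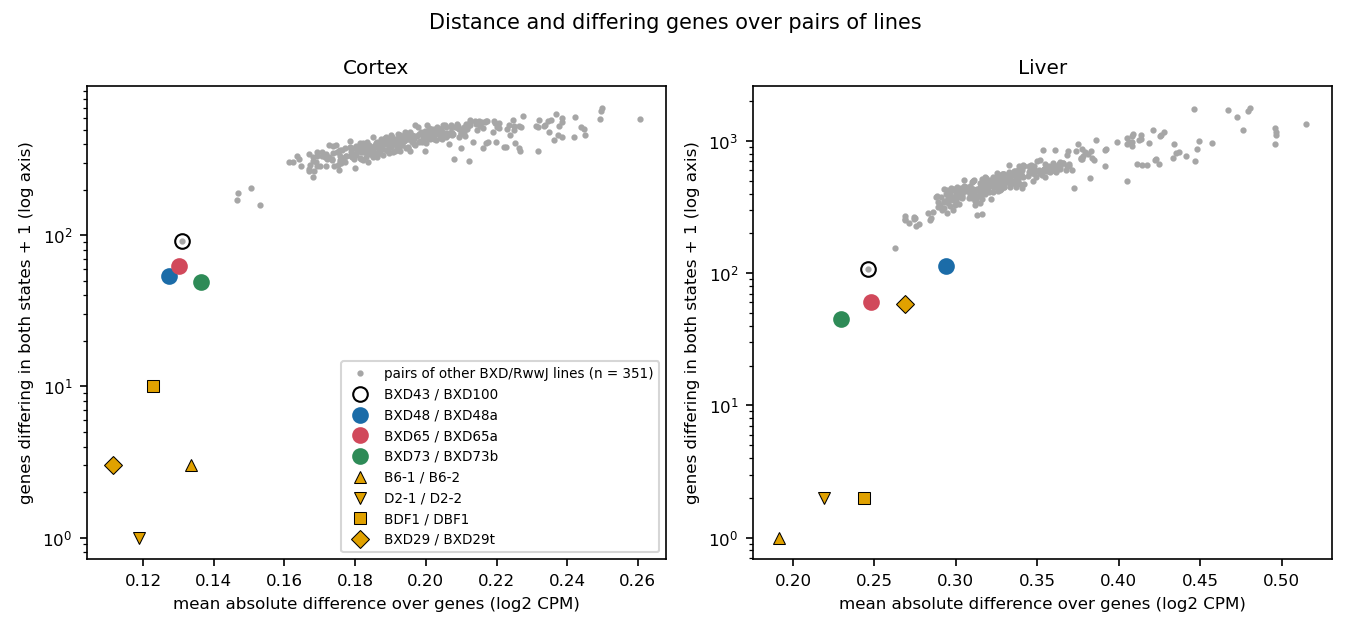
Each point is a pair of lines, with the mean absolute difference in log2 CPM over all genes on the x axis and the number of genes called in both states, plus 1, on a logarithmic y axis, for cortex (left) and liver (right). The 3 subline pairs (filled circles) lie at the lower left of the 351 pairs of other lines (grey) and above the repeated B6 and D2 pools (triangles), and in liver BXD48 and BXD48a lie farther right, at 0.294, than the other sibling pairs.

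By the rule, called genes had 1 sign in both states. The median absolute difference of the called genes was 1.19, 1.19 and 1.21 in cortex and 1.495, 2.13 and 1.84 in liver for the pairs 48, 65 and 73, while over all genes it was between 0.0671 and 0.181. Values just either side of the size rule show how the choice was made: in cortex Zfp788 was inside with 0.74 in Ctr and 0.51 in SD, and Kcnj11 was outside with 0.61 and 0.50. Among genes with a mean of at least 1 log2 CPM, 25 of the 32 cortex genes that differed by at least 1 log2 between BXD48 and BXD48a in Ctr did so in SD as well with the same sign. For the other pairs the figures were 30 of 79 and 22 of 57, or 38.0% and 38.6%, against a median of 88.3% for pairs of other lines and 47.1% for the B6 pools. In pair 48 it was 78.1%. Taken from the SD state, 21 of 26, 33 of 39 and 24 of 36 cortex genes of the pairs 48, 65 and 73 did so in Ctr as well. In liver the counts were 234 of 392, 115 of 254 and 93 of 226 from Ctr and 222 of 428, 114 of 274 and 112 of 268 from SD. The liver shares from Ctr were 59.7%, 45.3% and 41.2%, against a median of 67.0% for pairs of other lines. The B6 pools had 32.0% and the D2 pools 33.5%.

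**Figure D2:**
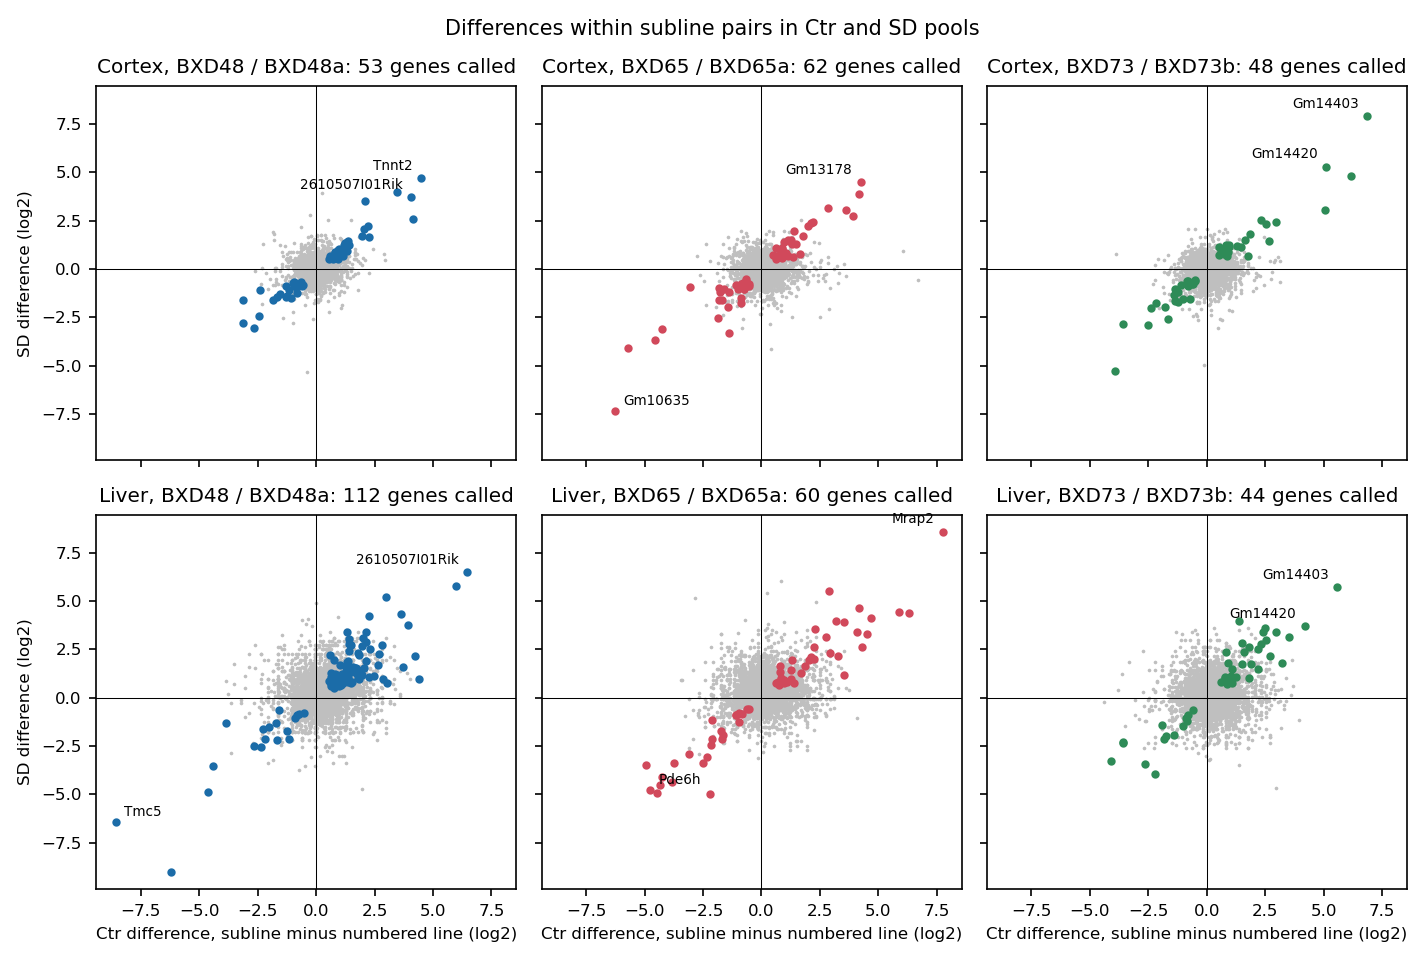
Difference within each subline pair in the Ctr pools (x axis) and the SD pools (y axis), in log2 CPM, for every gene (grey) and for called genes (coloured), with cortex above and liver below. The called genes follow the diagonal out to 7.90 for Gm14403 in cortex and 8.58 for Mrap2 in liver, while most other genes form a cloud around 0.

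The most different gene between BXD48 and BXD48a in cortex was Tnnt2, the troponin T of cardiac muscle. BXD48 had -1.87 log2 CPM in Ctr and -2.18 in SD, from 5 and 4 reads, and BXD48a had 2.62 and 2.49, from 127 and 121 reads. The difference was 4.58 (SE 0.41, limma adjusted p = 1.1e-11). D2 was 4.51 lower than B6, so that BXD48 stood at the D2 level and BXD48a at the B6 level. Neighbouring genes moved with it. Tnni1, the slow skeletal troponin I, was higher in BXD48a by 3.72 (SE 0.48), whereas Cacna1s, the calcium channel subunit of skeletal muscle, was lower by 2.86 (SE 0.31). Nav1, a microtubule-associated protein of growing neurites, was higher by 0.90 (SE 0.14). These 4 genes lie on chromosome 1 between 137331157 and 138016399 (mm9), BXD48 was on the D2 side at each of them, and with the SD pools alone Nav1 no longer passed.

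The other large cortical differences in this pair followed the same pattern on chromosomes 4, 7 and 11. On chromosome 11, 2610507I01Rik was at 0.60 and 0.58 in BXD48 and at 4.64 and 4.31 in BXD48a. Rps15a, a protein of the small ribosomal subunit and an abundant gene, had 5.17 and 5.13 in BXD48 and 6.36 and 6.37 in BXD48a (chromosome 7). The pseudogene Rps15a-ps6, named after its values had been seen, was called in the other direction. It had 78 and 49 reads in BXD48 and 20 and 15 in BXD48a. How reads were split between these similar genes was not tested. Eif4a1, the RNA helicase of translation initiation, was lower in BXD48a, at 4.98 and 5.19 against 5.92 and 6.02 in BXD48. It sits in a stretch of chromosome 11 (68997434 to 69509351) together with Alox8, Gucy2e and Tnfsf12, where BXD48a was on the D2 side.

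In liver the pair BXD48 and BXD48a differed at more genes than the other pairs, and 93 of the 112 were higher in BXD48a. The largest differences again had the size of the parental ones. Ctse, the aspartic protease cathepsin E, was at 6.88 and 7.22 in BXD48 and at 0.69 and -1.79 in BXD48a, while D2 was 8.03 higher than B6. Tmc5, a transmembrane channel-like gene, was at 5.82 and 5.21 in BXD48 and at -2.77 and -1.22 in BXD48a, from 367 and 208 against 0 and 2 reads. 2610507I01Rik differed by 6.46 (SE 0.58), more than in cortex. Dab1, an adaptor of reelin signalling, was at 4.66 and 4.62 against 0.04 and -0.23. Klk1b4, a kallikrein gene, was at 0.46 and -0.22 against 4.10 and 4.09. When the recovered reads were fitted with voom, Tmc5 was no longer called.

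Moxd1, which encodes a monooxygenase related to dopamine beta-hydroxylase, departed from that pattern. BXD48 had 0.99 and 0.48 log2 CPM, from 12 and 7 reads, and BXD48a had 6.99 and 6.27, from 865 and 549 reads. The difference was 5.90 (SE 0.93, limma adjusted p = 5.81e-05), but D2 and B6 differed by only 0.03 (SE 0.66). The other BXD/RwwJ lines ranged from -2.77 to 8.28 in Ctr with a median of 6.64, so BXD48 was among the low lines of a wide distribution. This call too was lost with voom.

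A list of candidate genes of the study was looked at in both tissues. The study chose them with these samples, and they are therefore not independent evidence. Of the 15 listed in liver, 3 were called in this pair, where 0.794% of all genes were. Acot11, an acyl-CoA thioesterase of fatty acid metabolism, was at 3.22 in Ctr and 0.05 in SD in BXD48, from 60 and 5 reads, and at 6.21 and 5.27 in BXD48a, from 502 and 274 reads. The difference was 2.98 in Ctr and 5.22 in SD, both larger than the parental one, in which D2 was 1.18 lower than B6 (SE 0.30). Acot11 fell by 3.17 from Ctr to SD in BXD48, whereas the other lines outside the pairs ranged from -1.64 to 0.15 and BXD48a had -0.94. Cyp4a32, a fatty acid omega-hydroxylase, was higher in BXD48, at 7.48 and 7.90 against 5.80 and 5.72. Hyi, a hydroxypyruvate isomerase, was higher there as well, at 6.89 and 7.09 against 6.38 and 6.27, a difference that did not pass with the Ctr pools alone. All 3 lie on chromosome 4. In BXD65 and BXD65a none of the 15 was called, and in cortex none of 12 was called in any pair.

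A second group in the liver of this pair consisted of genes of the interferon response, which encode antiviral sensors and effectors. Of 36 listed, 8 were called, all higher in BXD48a, as were 0.659% of all genes tested. They were Ifit2, Ifi202b, Ifi203, Ifi204, Oas1a, Oas3, Gbp3 and Trim30a. In both states 31 of the 36 were higher in BXD48a, with a median difference of 0.67 beside 0.01 over all genes. In the liver of BXD65 and BXD65a 30 of 36 were higher in BXD65a in both states and the median was 0.71, beside 0.01 over all genes, yet 0 were called. In BXD73 and BXD73b the median was -0.11. In cortex 28 were listed and 0 were called in any pair, where 0.322% to 0.416% of all genes were. Their cortex medians were 0.41, -0.003 and 0.27 for the pairs 48, 65 and 73. Of the 28, 22, 7 and 15 were higher in the a or b subline in both states, and 1, 5 and 3 were lower. Hepatocyte markers were lower in the a or b subline in both states for 8 of 8 genes in each pair, with medians of -0.20, -0.13 and -0.18 for the pairs 48, 65 and 73. In pair 48 33 of 36 glutathione S-transferase and Ugt genes were lower in both states (median -0.22), and in pair 65 20 of 20 major urinary protein genes were (median -0.33). The part of these in the interferon values was not tested. The called genes were partly neighbours, with Oas3 and Oas1a inside 0.154 Mb of chromosome 5 and the 3 Ifi genes inside 0.259 Mb of chromosome 1. Oas3, a synthetase of 2'-5' oligoadenylates, was at 0.09 and 0.80 in BXD48 and at 2.72 and 2.49 in BXD48a. Under quantile normalization Ifit2, Oas1a and Gbp3 were not called, and with voom these 3, Oas3 and Ifi203 were not. With the SD pools alone none of the 8 passed, and with the Ctr pools alone Ifi204 did.

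Among the other genes that were higher in BXD48a liver, 3 were named after their values had been seen. Mpeg1, the pore-forming perforin-2 of macrophages, was at 6.62 and 6.18 in BXD48, below every other pool in both states, and at 7.47 and 7.11 in BXD48a. Emr1, which encodes the macrophage antigen F4/80, differed by 1.08 (SE 0.26), a call that was lost with voom. Ptprc, the pan-leukocyte antigen CD45, was at 3.69 and 3.77 against 5.23 and 4.58, and its call was lost with voom, with quantile normalization and without a variance trend. None of the 3 passed with either state alone. In bulk tissue fewer cells of a type and less RNA per cell cannot be told apart. D2 and B6 differed by 0.18 for Mpeg1, 0.16 for Emr1 and -0.08 for Ptprc, and were not called at these 3 genes.

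BXD48 lay near the bottom of the panel at many of these liver calls. For 54 of the 58 liver genes higher in BXD48a and not called between the parents, BXD48 was among the 3 lowest of 33 lines. Its median rank was 1 and that of BXD48a 26.5. The choice of genes itself put BXD48 below BXD48a, so these ranks are descriptions and not a test. In pair 73 there were 9 liver genes of this kind. There BXD73 had a median rank of 1 and was among the 3 lowest for 8, and BXD73b had a median rank of 27. The summed B cell markers did not follow the pair in both states, at 22.9 CPM in BXD48 and 31.3 in BXD48a in Ctr but 17.6 and 15.3 in SD. Hepatocyte markers summed to 2413.2 and 2301.0 CPM in Ctr and to 2779.2 and 2203.4 in SD, within the range of the other lines. The part of either in the calls was not tested. The number of genes called in the liver of pair 48 was the count that depended most on the method. It was 61 after quantile normalization and 49 with voom. Of the 62 genes not called between the parents 23 and 15 were still called, against 34 and 30 of the 50 that were.

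Between BXD65 and BXD65a the largest cortical difference was at Gm10635, which had 144 and 160 reads in BXD65 and 1 and 0 in BXD65a, or 2.74 and 2.83 log2 CPM against -3.51 and -4.52. D2 was 5.72 lower than B6 at this gene. Sbsn, which encodes the epithelial protein suprabasin, was at 3.50 and 2.98 in BXD65 and at -2.19 and -1.11 in BXD65a. Catsperg2, an accessory subunit gene of the sperm calcium channel, went in the opposite direction, at -3.48 and -3.51 against 0.70 and 0.38. Gm13178 had no read in BXD65 and 18 and 22 in BXD65a, which makes it at least 5.81-fold higher when BXD65 is taken at 3 counts per library. At all 4 genes BXD65a was on the D2 side.

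Aldh1a3 and Ntn5 put BXD65 on the D2 side. Aldh1a3, a retinaldehyde dehydrogenase, was at -2.13 and -1.92 in BXD65 and at 0.70 and 1.23 in BXD65a, and this call was lost with either state alone. Ntn5, a member of the netrin family, was at 2.69 and 2.48 against 3.95 and 3.95. Slc2a5, Psenen and Hspb6 put BXD65a there. Slc2a5, the fructose transporter GLUT5, was lower in BXD65a by 2.19 (SE 0.32), 2.73 times the log2 difference of D2 from B6. Psenen, a subunit of gamma-secretase, was lower in BXD65a by 1.66 (SE 0.26), and its neighbour Hspb6, a small heat shock protein, by 1.72 (SE 0.28). In Hspb6 BXD65a was below every other pool in both states.

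The liver of BXD65 and BXD65a held the largest difference of all. Mrap2, an accessory protein of melanocortin receptors, had no read in either pool of BXD65 and 226 and 437 reads in BXD65a. It was at least 66.7-fold higher in BXD65a, with BXD65 taken at 3 counts per library, and D2 was 8.60 above B6 on the log2 scale. Pde6h, a phosphodiesterase subunit of cone photoreceptors, had 24 and 28 reads in BXD65 and none in BXD65a and was at least 9.04-fold higher in BXD65. Clec2h, a C-type lectin, was at -0.35 and 0.62 against 5.98 and 5.00, and its call was lost with the SD pools alone. Nt5e, the ectonucleotidase CD73 that makes adenosine, was at 4.65 and 5.24 against 6.51 and 6.89. Me1, cytosolic malic enzyme, was among the abundant genes called here, at 8.36 and 8.21 in BXD65 and 7.73 and 7.63 in BXD65a, and did not pass with either state alone.

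The paired hepcidin genes of chromosome 7 moved in opposite directions. Hepcidin is the liver hormone that limits iron release into blood. Hamp2 was at 4.50 and 4.82 in BXD65 and at 6.18 and 6.08 in BXD65a, whereas Hamp, named after its values had been seen, was at 5.91 and 5.59 against 4.82 and 4.68. D2 was above B6 by 1.21 at Hamp2 and below it by 0.75 at Hamp. The 2 genes are near-identical neighbours, and reads that match both cannot be assigned with certainty. Hamp was called in BXD73 and BXD73b too, at 5.67 and 5.89 against 4.78 and 4.86, and did not pass there with either state alone.

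In cortex, BXD73 and BXD73b differed most at 2 neighbouring predicted genes of chromosome 2. Gm14403 had 1 and 0 reads in BXD73 and 254 and 224 in BXD73b, and Gm14420 had 10 and 10 against 416 and 409. Both were lower in D2 than in B6, by 7.17 and 5.11 log2. They belong to a group of similar predicted genes, so that the assignment of reads to each is uncertain. On chromosome 9 Rpl29, a protein of the large ribosomal subunit, was at -1.94 and -0.69 in BXD73, from 5 and 13 reads, and at 4.23 and 4.13 in BXD73b, from 470 and 378 reads. Its 5 called neighbours between 105891785 and 106350009 included Col6a4, a collagen VI chain, which was higher in BXD73b by 2.42 (SE 0.41), and Ppm1m, a protein phosphatase, which was higher by 0.85 (SE 0.10). BXD73 was on the D2 side at all 6.

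Scoc, a short coiled-coil protein of chromosome 8, had the smallest p of this pair, at 4.29 and 4.42 in BXD73 and 6.16 and 6.23 in BXD73b (limma adjusted p = 3.24e-29). Snrpn, an imprinted splicing gene expressed from the paternal allele, was higher in BXD73b by 2.43 (SE 0.56), from 9 and 7 against 53 and 44 reads. That call was lost with either state alone. Snrpn shares exons with neighbouring transcripts, and its reads may be split between them. Sbsn and Catsperg2 differed here as they did in BXD65 and BXD65a, with Sbsn lower by 4.61 (SE 0.46) and Catsperg2 higher by 4.07 (SE 0.48) in the b subline.

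In liver, 30 of 44 genes were higher in BXD73b. Dhtkd1, a dehydrogenase of lysine and tryptophan breakdown and 1 of the 15 candidate genes, was at 7.09 and 6.18 in BXD73 and at 7.98 and 7.95 in BXD73b. D2 was 1.36 higher than B6, and BXD73b stood at the D2 level. The difference was 0.90 in Ctr, where it did not pass by itself, and 1.77 in SD. Atp8b5, a phospholipid flippase, was at 1.28 and 0.74 against 3.82 and 3.74. Gba2, the non-lysosomal glucosylceramidase, was at 5.69 and 4.99 against 6.45 and 5.99, and Ugt1a9, a glucuronosyltransferase, at 5.32 and 5.61 against 6.19 and 6.31. Atp4a, the proton pump of the stomach, was lower in BXD73b by 3.04 (SE 0.46) although the parents differed by only -0.20 (SE 0.32).

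**Figure D3:**
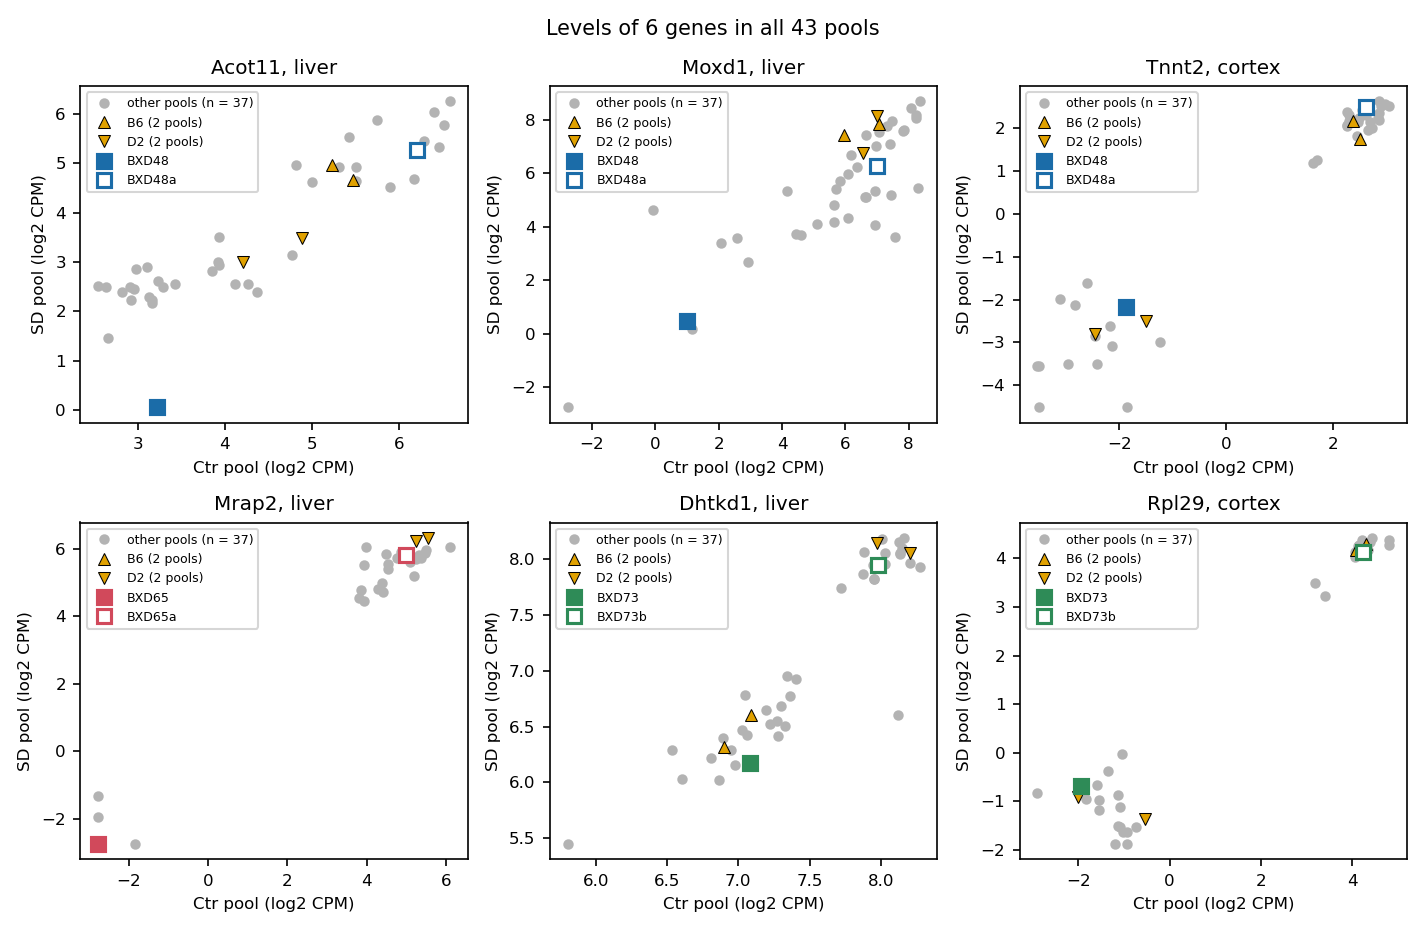
Level in the Ctr pool (x axis) and the SD pool (y axis), in log2 CPM, of Acot11, Moxd1, Mrap2 and Dhtkd1 in liver and of Tnnt2 and Rpl29 in cortex, with 1 point per line or strain pool and the sibling pair as filled and open squares. At Tnnt2, Mrap2, Dhtkd1 and Rpl29 the siblings lie in separate clusters with a parent in each, whereas at Acot11 BXD48 has the lowest SD level and at Moxd1 both parents lie near BXD48a. At Mrap2 both B6 pools, like BXD65, had no read and lie under its square.

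Most genes that separated siblings also separated the parents. In cortex 42 of 53 (79.2%), 48 of 62 (77.4%) and 40 of 48 (83.3%) called genes were called between D2 and B6, and in liver 50 of 112 (44.6%), 45 of 60 (75.0%) and 33 of 44 (75.0%). For pairs of other lines the median share was 65.1% in cortex, with a range of 47.6% to 80.0%, and 54.7% in liver. At these genes the difference within the siblings was as large as the one between the parents: the median ratio was 1.05, 1.01 and 0.976 in cortex and 1.12, 0.999 and 0.951 in liver for the pairs 48, 65 and 73. The siblings fell on opposite sides of the parental midpoint at 40 of 42, 46 of 48 and 40 of 40 genes in cortex and at 38 of 50, 43 of 45 and 33 of 33 in liver.

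Neither sibling was the D2-like one throughout. In cortex BXD48 was on the D2 side at 28 of the 42 genes, BXD65 at 26 of 48 and BXD73 at 18 of 40. In liver these numbers were 34 of 50, 22 of 45 and 12 of 33. B6 had the higher level at 34 of 42, 34 of 48 and 32 of 40 of the cortex genes (81.0%, 70.8% and 80.0%), and at 602 of all 934 genes called between the parents (64.5%). In liver B6 was higher at 27 of 50, 25 of 45 and 20 of 33, and at 603 of 1182 (51.0%). The reads were aligned to the B6 genome, and how far this enters these shares was not tested.

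**Figure D4:**
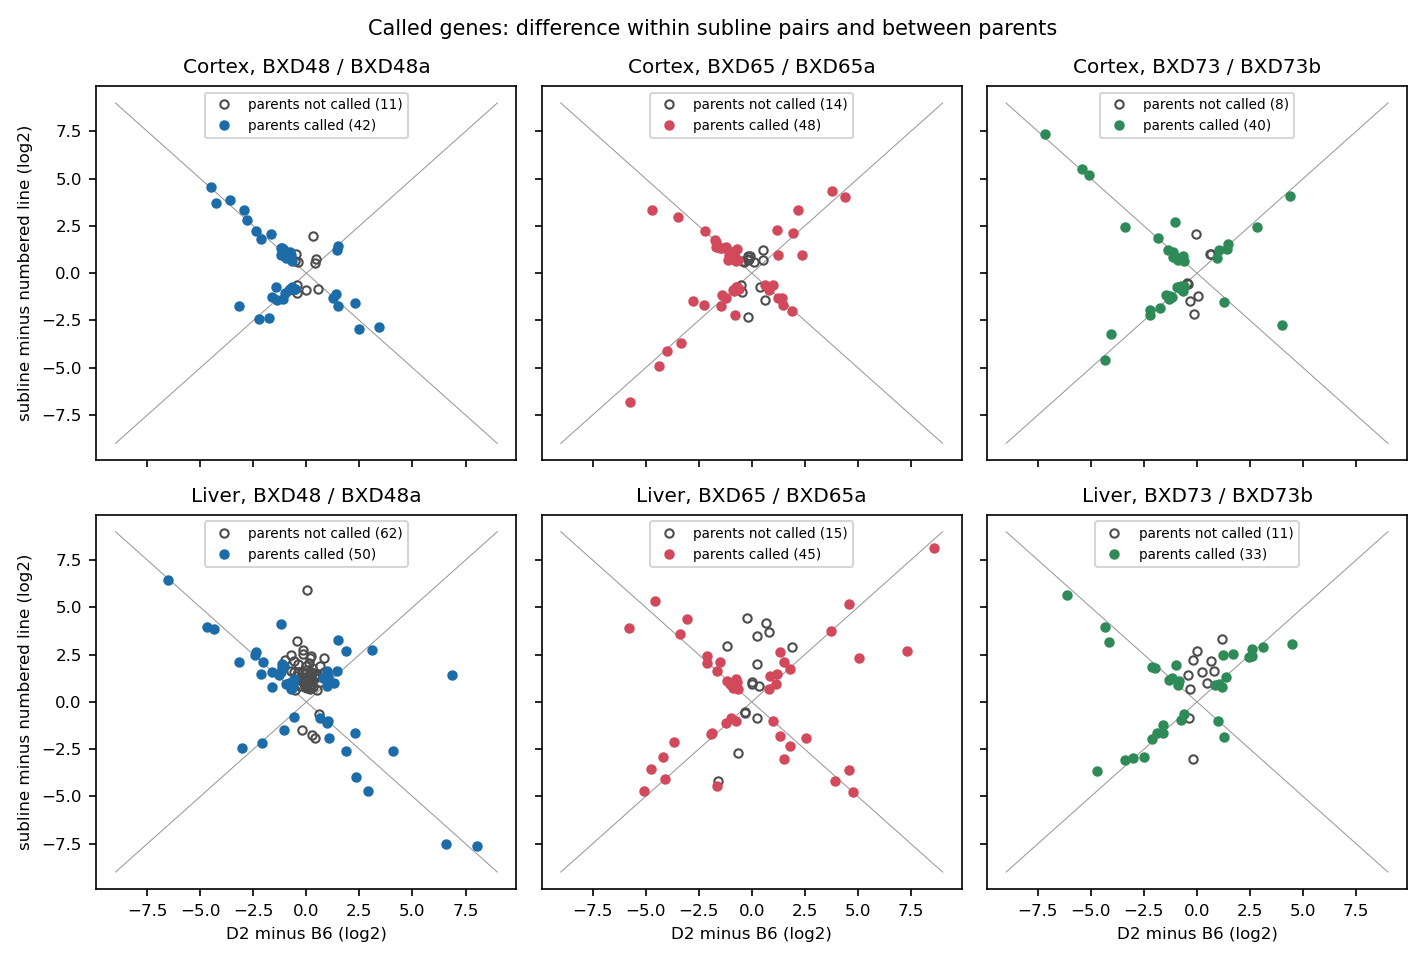
For each called gene, the difference D2 minus B6 (x axis) and the difference within the subline pair (y axis), in log2 CPM, with genes called between the parents filled and the others open. Filled points lie along the drawn diagonals, where the siblings differ by as much as the parents, and the liver of BXD48 and BXD48a has the most open points, 62 of 112.

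The called genes were grouped along the chromosomes. A position in mm9 was found for 98.0% of the cortex genes and 98.3% of the liver genes. Taking both tissues together, chromosome 7 held 23%, 28.7% and 27.6% of the located called genes of the pairs 48, 65 and 73, whereas it holds 7.55% of the listed genes and 9.54% of those called between the parents. After chromosome 7, chromosomes 1, 4, 9 and 11 held the largest shares. In pair 48 chromosome 1 held 14.5% and chromosome 11 13.2%, in pair 65 chromosome 9 held 14.9% and chromosome 4 13.9%, and in pair 73 chromosome 9 held 14.5% and chromosome 1 13.2%. No gene of chromosomes 8 and 13 was called in pair 65, and none of chromosomes 3, 5, 10, 14, 15, 18 and 19 in pair 73. These shares are descriptions, since neighbouring genes are not independent.

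**Figure D5:**
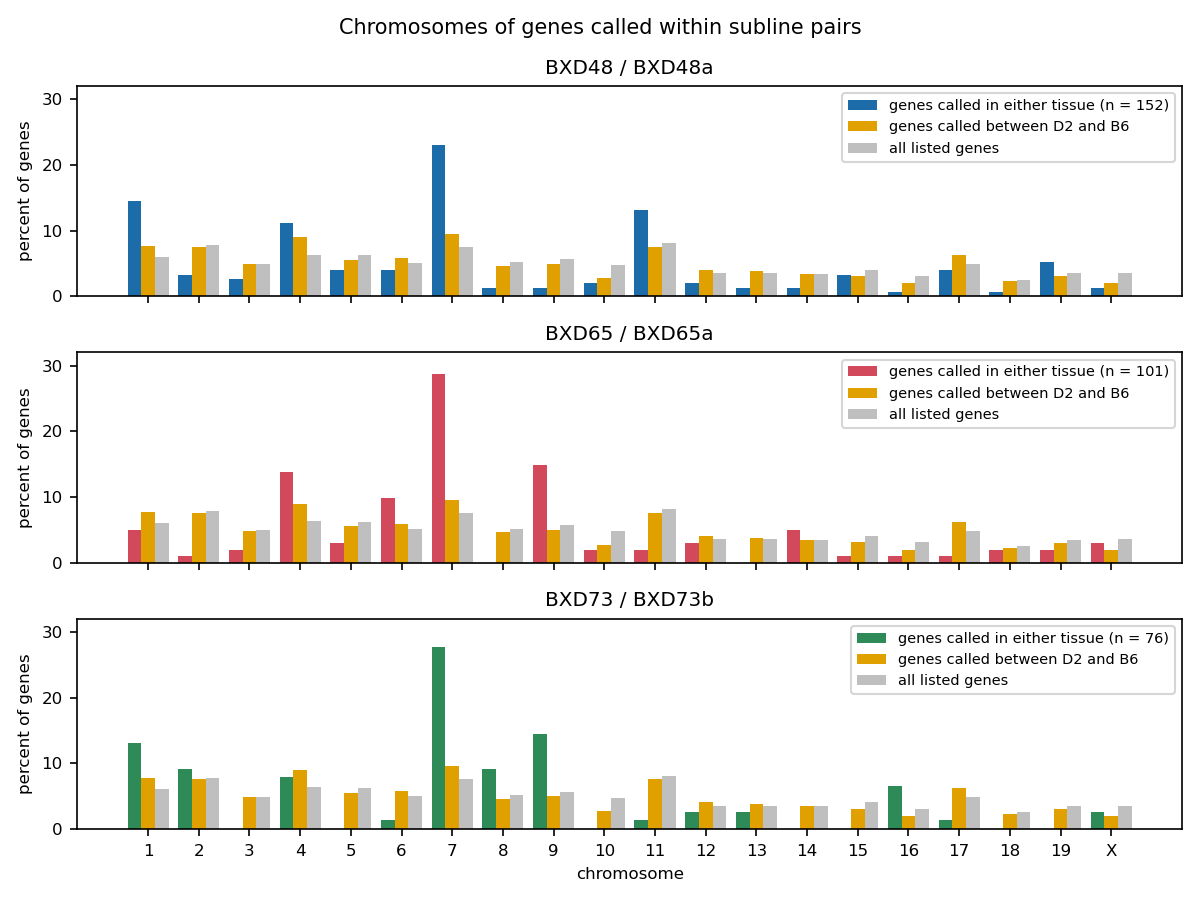
Percent of located genes on each chromosome (x axis) among genes called in either tissue within a subline pair (the first bar), among genes called between D2 and B6 (the middle bar) and among all listed genes (the last bar). Chromosome 7 has the tallest first bar in all 3 pairs, followed by chromosome 1 in pair 48 (14.5%) and chromosome 9 in pairs 65 (14.9%) and 73 (14.5%).

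Stretches of 3 or more called genes, with no more than 20 listed genes between successive members, numbered 38 and held 164 of the 379 calls. Calls and stretches were counted per pair and tissue, with 20 stretches in cortex and 18 in liver. A region with calls in both tissues or in more than 1 pair is therefore counted more than once. The stretches had 3 to 8 called genes and spanned 0.0306 to 15.3 Mb, with a median of 2.00 Mb, and 14 of the 38 lay on chromosome 7. In 34 stretches at least 2 genes were called between the parents, and in 33 of these the same sibling was on the D2 side at every such gene. The exception was the Ifi cluster of chromosome 1 (175653814 to 175912975) in the liver of pair 48, where BXD48 was on the D2 side at 2 genes and BXD48a at 1. In cortex BXD65a was on the D2 side at all 7 called genes of chromosome 4 between 142939660 and 147462140, among them Gm13178, Gm13157 and Zfp933. In liver it was on the D2 side at 7 of 7 such genes between 144293094 and 149329152.

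Several regions of chromosome 7 held called genes in more than 1 pair. The region of Tm2d3 and Adamts17, given below, did so in the cortex of all 3 pairs, and another did so in 2. From 30482238, the start of Catsperg2, to 31900309 there were 7 called cortex genes in BXD65 and BXD65a, and from the same start to 31541152 there were 8 in BXD73 and BXD73b. Catsperg2, Hspb6, Psenen and Sbsn were called in both, and in each pair the a or b subline was on the D2 side at every gene called between the parents. Syne4, which encodes the outer nuclear membrane protein nesprin-4, was called in the cortex of pair 73 and in the liver of both pairs. In liver it was at 1.93 and 2.07 against -1.80 and -1.29 in pair 65 and at 2.69 and 2.67 against -1.39 and -0.59 in pair 73. The liver calls of Syne4 did not pass with either state alone, and that of pair 65 was lost with voom.

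Across pairs, 9 cortex genes were called in both 48 and 65 (17.0% of 53 and 14.5% of 62), 6 in both 48 and 73 (11.3% and 12.5%) and 12 in both 65 and 73 (19.4% and 25.0%). The liver numbers were 5, 4 and 7. All 3 cortex pairs shared A230057D06Rik, Adamts17, B230209E15Rik, Ipw and Tm2d3, and all 3 liver pairs shared 1810008I18Rik and E030018B13Rik. Ipw is an imprinted noncoding RNA of the Snrpn region, and Adamts17 is a secreted metalloprotease. A230057D06Rik was at 4.34 and 4.12 in BXD48 but 1.88 and 1.71 in BXD48a, at 1.75 and 1.52 in BXD65 but 3.87 and 3.90 in BXD65a, and at 4.15 and 3.88 in BXD73 but 1.77 and 1.85 in BXD73b. Each sibling thus had 1 of 2 levels that the parents also show, 3.97 in B6 and 1.99 in D2 in the Ctr state. Adamts17 and Tm2d3 followed the same division of lines, with Adamts17 higher on the D2 side. Both lie in 1 stretch of chromosome 7 in the cortex of each pair, so these shared calls are not independent. The stretch ran from 71491644 to 74904628 in pair 48, from 71491644 to 74297511 in pair 65 and from 67127388 to 74297511 in pair 73.

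The tissues shared few calls. Of the genes listed in both, 5 were called in both tissues in pair 48, 12 in pair 65 and 11 in pair 73. In 27 of these 28 cases the difference had the same sign in cortex and liver. The share of cortex calls also called in liver was 12.8%, 24% and 30.6%, against a median of 25.0% for pairs of other lines, and the share of liver calls also called in cortex was 5.81%, 33.3% and 31.4%, against 19.4%. Hddc3, a hydrolase of the bacterial alarmone ppGpp that is conserved in animals, shows a shared case. It was higher in BXD48a by 1.42 (SE 0.10) in cortex and 2.77 (SE 0.34) in liver. In BXD73b it was higher by 1.55 in cortex, where it was called too, and by 2.91 (SE 0.34) in liver.

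Responses to SD were not detectably closer within siblings than between other lines. For each gene the SD minus Ctr difference was taken in each line, and the mean absolute difference of these responses was 0.188, 0.257 and 0.228 in cortex for the pairs 48, 65 and 73. BXD48 and BXD48a had the most similar responses of all pairs, but BXD65 and BXD65a ranked 437 and BXD73 and BXD73b 322. The mean of 0.224 was beside a median of 0.222 for pairs of other lines (exact permutation p = 0.781, adjusted 0.781). In liver the mean was 0.388 beside 0.416 (exact permutation p = 0.174, adjusted 0.209). The repeated B6 pools had 0.212 in cortex and 0.348 in liver.

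Activity-regulated genes, the immediate early transcription factors and synaptic genes that neurons switch on when they fire, were followed as a group in cortex. None of 19 was called in any pair, where 0.322% to 0.416% of all genes were, so that a count of 0 says little. In BXD65a 18 of 19 were higher than in BXD65 in both states, with a median difference of 0.53 in Ctr and 0.25 in SD. Striatum markers also differed in this pair, with 8 of 10 lower in BXD65a in both states and a median of -0.48. They summed to 466.9 CPM in BXD65 and 406.0 in BXD65a in Ctr and to 473.6 and 363.3 in SD, and the other lines ranged from 243.5 to 545.2 and from 327.6 to 613.5. In pair 73 8 of 10 were lower in BXD73b, with a median of -0.71 and sums of 405.4 and 391.1 CPM in Ctr and 610.5 and 388.4 in SD. Their part in the activity-regulated values was not tested. Arc, which encodes a synaptic plasticity protein, was at 6.38 in BXD65 and 7.58 in BXD65a in Ctr and at 9.20 and 9.39 in SD (limma adjusted p = 0.434). Its SD response was 2.82 in BXD65 and 1.81 in BXD65a. The median response of the 19 genes was 1.80 in BXD48 and 1.87 in BXD48a, ranks 30 and 31 of 33, and 1.35 and 1.01 in BXD65 and BXD65a. In BXD73 and BXD73b it was 1.21 and 1.76, ranks 12 and 29. The Ctr level of the group was the lowest of the 33 lines in BXD73b and the second highest in BXD65a.

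Other lists had few or no members called. None of 20 circadian clock genes was called in cortex, where the median difference was 0.01, 0.05 and -0.06, beside 0.00 over all genes. In liver, where 0.794%, 0.425% and 0.312% of all genes were called in the pairs 48, 65 and 73, single members of such lists do not stand apart from that background. Of 36 glutathione S-transferase and Ugt genes 1 was called in pair 48, the microsomal transferase gene Mgst3 (lower in BXD48a by 0.99, SE 0.17), and 1 in pair 73, Ugt1a9. In pair 65 it was 1 of 45 cytochrome P450 genes of families 1 to 3, Cyp2a22, which was lower in BXD65a by 4.44 (SE 0.73) and lost its call with voom. Dusp4, a phosphatase of MAP kinases from the activity-regulated list, was called in the liver of pair 48, at 1.10 and 1.82 against 2.79 and 3.08, and lost its call with quantile normalization. No member was called in any pair or tissue among the lists of MHC, major urinary protein, cholesterol synthesis, heat shock and GABA-A receptor genes, genes with known B6 and D2 variants, and the cell type markers.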

How the data were processed

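Cortex and liver RNA of pooled mice was sequenced (stranded mRNA libraries, single-end reads). Per the labels and the study's methods, the authors aligned reads with STAR to mm9, counted them per RefSeq gene with HTSeq, removed genes with low counts, normalized with edgeR's TMM and deposited log2 CPM values, with 1 table per tissue and state. FastQC is also named; tool versions were not given in the sources used here.

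All values were used as deposited. Each value returned a whole number of reads within 0.02 for 100% of values, which gave 18995492 to 28998853 reads per library in cortex and 4681101 to 9022854 in liver. Bounds for genes without reads took 3 counts per library and cover counting error only. In cortex a gene without a read stood at about -4.51 log2 CPM and in liver at about -2.77. A difference on this scale is therefore understated for low genes.

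limma 3.58.1 in R 4.3.3 was fitted per tissue to 86 libraries, with a term for each of the 43 pools and 1 for the state, and with a variance trend. Adjusted p used the Benjamini-Hochberg method over all genes of a tissue in 1 pair. As a line has 1 pool per state, its replicates are its Ctr and SD pools, and p-values measure the spread between these. Means over pairs of lines were tested by exact permutation. The fit was tested on simulated data. Gene positions came from GENCODE models of mm9. Tables were made with python 3.11.15, pandas 2.3.3, numpy 2.4.6 and matplotlib 3.10.9.

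Genes named were, per pair and tissue, the 5 called genes with the largest smaller difference of the states, the same 5 without clone or predicted-gene names, genes called in more than 1 pair or in both tissues, called list members and up to 4 per stretch. Others are marked as named after their values were seen. The pairs, the gene lists and the naming rule were chosen with earlier results of these data known. Alternatives changed the minimum difference, filter, normalization, variance model, lines fitted and states or pairs used. Phenotypes and genotypes were not used here. A result on 1 item is not reported here.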

Additional observations from a re-analysis of the deposited data

Results flagged for a closer look

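At 6 of the 28 cases in which a gene was called in both tissues of a pair, the difference between siblings was not the same in liver and cortex, by a test of the liver minus cortex difference itself (limma across 12695 genes per pair, Benjamini-Hochberg adjusted). The test was added after the counts had been seen. Between BXD48 and BXD48a the difference was larger in liver by 2.572 at 2610507I01Rik (adjusted p = 0.0152) and by 1.632 at Tceanc2, an elongation factor-like gene (adjusted p = 0.00484). Between BXD65 and BXD65a it was larger in liver by 3.038 at Gm5506 (adjusted p = 0.0167). In BXD73 and BXD73b it was smaller in liver, with -1.745 at Gm14403 (adjusted p = 0.0340) and -3.664 at Rpl29 (adjusted p = 2.28e-07). At Gm14403 BXD73 had 1 and 0 reads in cortex. A gene without a read stood at about -4.51 log2 CPM in cortex and -2.77 in liver. The part of these unequal floors in the tissue difference at Gm14403 was not tested. Zfp788, a zinc finger gene, was the case with opposite signs: BXD48a was higher than BXD48 by 0.74 and 0.51 in cortex and lower by 1.60 and 0.65 in liver, a liver minus cortex difference of -1.751 (adjusted p = 6.92e-05). At Zfp788 D2 minus B6 was -0.54 in cortex, where it was not called, and 0.99 in liver, where it was.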

How the results depend on the processing

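The closeness of siblings in level and in number of calls kept its direction and passed under every alternative run, including each pair left out. The exact permutation p ranged from 1.2e-07 to 9.73e-05 for cortex levels, 2.41e-07 to 0.00419 for liver levels, 1.2e-07 to 4.89e-05 for cortex calls and 1.2e-07 to 8.15e-05 for liver calls. The SD responses passed under none, with p from 0.153 to 0.949 in cortex and 0.0739 to 0.52 in liver. Their cortex mean fell below the median of other lines at 0.161 with genes of a mean of at least 1 log2 CPM (p = 0.69, exact permutation), and ranged from 0.208 without pair 65 to 0.243 without pair 48, the cause of which was not tested.

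Counts of called genes moved with the size rule. Requiring 1 log2 gave 28, 27 and 25 in cortex and 70 in the liver of pair 48, and no minimum gave 87, 111 and 106 in cortex. With 1 state of the pair left out the cortex counts were 31 to 37, 46 to 131 and 38 to 56 and the liver counts 26 to 36, 23 to 27 and 18 to 22 for the pairs 48, 65 and 73. In those fits a lone library is assumed to vary like the other pools. The liver count of pair 48 was 49 with voom and 61 with quantile normalization, and that of pair 65 was 37 with genes of a mean of at least 1 log2 CPM.

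Of the 174 results on named genes, 0 turned in direction. Calls were lost for 26 with voom, 15 with quantile normalization, 4 without a variance trend, 3 with median centring and 2 with the BXD/RwwJ lines alone, and 97 did not pass with 1 of the states. At the mean filter 134 passed and the others were not tested. Liver depth, at most 9022854 reads, limits what low genes can show.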

Other observations

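BXD43 and BXD100, which share no line number, were as close as the siblings. They differed by 0.131 in cortex (rank 3 of all pairs of BXD/RwwJ lines) and by 0.246 in liver (rank 2), with 90 cortex and 106 liver genes called. Of these, 80.0% and 70.8% were also called between D2 and B6. The pair belongs to the comparison set of other lines, whose next lowest counts were 158 in cortex and 155 in liver. AI506816 was at 3.07 and 2.89 log2 CPM in BXD100 and at -4.51 and -3.07 in BXD43 in cortex. Myoc, which encodes the extracellular protein myocilin, was at -2.12 and -3.55 in BXD100 against 2.92 and 2.63. Fggy, a carbohydrate kinase gene, was at 3.58 and 2.89 against -1.48 and -0.91. These genes were chosen after their values were seen.

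Of the liver genes called between the TyJ lines BXD29 and BXD29t, 14.0% were also called between D2 and B6. The reciprocal hybrids BDF1 and DBF1 differed at 9 genes in cortex, all called between the parents, and at 1 in liver.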
